A study of Mus musculus with 12 samples.

Results

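Oxidative phosphorylation is carried out by 5 multi-subunit enzymes of the inner mitochondrial membrane. Complexes I to IV pass electrons from NADH and succinate to oxygen, complexes I, III and IV pump protons, and complex V (ATP synthase) uses the proton gradient to make ATP. Most subunits are encoded in the nucleus and are made in fixed ratios, so their transcripts are usually held close together in one tissue, while a few subunits of complex IV have paired isoforms that are restricted to testis, muscle or lung. Naive and primed pluripotent cells are known to differ in their reliance on mitochondrial respiration, which makes these genes of interest along a differentiation course. The genes described here were chosen by name: rows called Ndufa, Ndufb, Ndufc, Ndufs or Ndufv with a number, Sdha to Sdhd, Uqcr, Cox4 to Cox8 and Atp5. In all, 86 of 25965 rows carried such a name, and 83 remained after leaving out Cox4i2, Ndufa4l2 and a pseudogene of Atp5l. By prefix, 36 belonged to complex I, 4 to complex II, 8 to complex III, 18 to complex IV and 17 to complex V.

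RNA was sequenced from Smchd1 del/del and Smchd1 fl/fl embryonic stem (ES) cells, labelled male and C57BL/6, at day 1, day 5 and day 8 of differentiation towards neuromesodermal progenitors, the bipotent cells that feed the spinal cord and the caudal mesoderm. Smchd1 encodes a chromatin protein that silences genes on the inactive X chromosome and at imprinted clusters. Each of the 6 groups held 2 libraries, 1 from line 1 and 1 from line 3, and each line came from 1 blastocyst. The del/del cells had been transduced with a retrovirus that carries Cre and a puromycin resistance gene and were then selected with puromycin, whereas the fl/fl cells of the same line were neither transduced nor selected, so deletion, transduction and selection cannot be told apart. All cells were moved from 2i and LIF to serum and LIF, then lost LIF and received Fgf2, later a Gsk3 inhibitor and finally Gdf11. The samples called day 1 are called undifferentiated in the labels and day 0 in the design text. With 2 libraries in a group, p-values measure the spread between these libraries only.

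Smchd1 itself was lower in del/del cells on each day, which is the direction of the labels. Day 1 libraries of del/del cells had 197 and 271 Smchd1 reads, those of fl/fl cells 1212 and 1495. Day 5 libraries of del/del cells had 102 and 104 reads, those of fl/fl cells 366 and 919. Day 8 libraries of del/del cells had 161 and 140 reads, those of fl/fl cells 728 and 111. The library with 111 reads was shallow, with 1.51 M gene reads in fl/fl line 3 at day 8 and 3.99 to 8.67 M in the other 11 libraries. Relative to the median gene the Smchd1 difference was -2.84 at day 1, -2.07 at day 5 and -2.43 at day 8 (log2, SE 0.24 each; limma, adjusted p = 0.0019, 0.043 and 0.0023). The day 8 call held under each of the 20 other settings, whereas the day 1 call was lost on the deposited scale and without del/del line 1, fl/fl line 1 or fl/fl line 3 of day 1 (adjusted p = 0.45, 0.061, 0.054 and 0.082), and the day 5 call was lost under 14 of the 20, the replicate block included (adjusted p = 0.10 to 0.99). Marker sums here and below are in reads per M mapped reads (RPM), after each library was shifted to its median gene. The sum of 8 pluripotency markers lay between 198 and 243 RPM in the 4 libraries of day 1 and between 41.7 and 90.7 RPM in those of day 8. The sum of 8 neuromesodermal markers was highest at day 5, at 68.0 to 129 RPM. At day 8 the sum of 8 fibroblast markers was 453 and 568 RPM in del/del cells, against 56.7 and 218 RPM in fl/fl cells and 1 of the 8, Dcn, had 0 reads in fl/fl line 3. Sums of 12 striated muscle markers at day 8 were 54.0 and 76.2 RPM in del/del cells and 11.2 and 35.9 RPM in fl/fl cells, those of 8 trophoblast markers 89.6 and 126 RPM and 239 and 613 RPM, and those of 8 extraembryonic endoderm markers 27.7 and 157 RPM and 124 and 276 RPM. The muscle sum in del/del cells rested mostly on Des, Actc1, Tnni1 and Tnnt2. Other muscle markers did not share it: Ttn had 13 and 3 reads in del/del and 22 and 7 in fl/fl cells. Myh7 had 1 and 6 against 12 and 0, and Myl7 2 and 5 against 9 and 0. At day 5 the endoderm sum was 30.4 and 37.6 RPM in del/del cells and 19.2 and 158 RPM in fl/fl cells, with line 3 the high one. The part of these cells in the values of members was not tested. Because cultures were sequenced in bulk, fewer cells of a type and less RNA per cell cannot be told apart.

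Of the 83 genes, 80 were tested: all but Cox6a2 (at most 10 reads in a library), Cox8c (at most 4 reads) and Cox8b (0 reads in each library), which encode muscle or testis isoforms of complex IV subunits. The name rule also takes in 4 genes that are not subunits of these enzymes. By their prefix they are counted under complexes IV and V throughout. Cox4nb is the older name of Emc8, a subunit of a protein insertion complex of the endoplasmic reticulum; Atp5sl is now called Dmac2, an assembly factor of complex I; Atp5s is a regulatory factor of ATP synthase; and Cox7a2l acts in joining complexes III and IV. Each of 13 transcripts of the mitochondrial genome was listed at 0 reads throughout, so the mitochondrially encoded subunits are not described.

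Members were abundant, short and even. Levels are given as log2 RPM after each library was shifted to its median gene, and, when genes are compared with each other, as log2 RPM per kb of transcript. The median member stood at 4.35 log2 RPM per kb, against 1.43 for all tested genes, and its transcript was 751.5 bases long, against 2778 bases. The most abundant per kb was Atp5o, the stalk subunit of ATP synthase that confers oligomycin sensitivity, at 7.09 log2 RPM per kb, all of whose exon sequence is shared with an overlapping gene model, followed by Atp5b, the catalytic beta subunit, at 5.96. The least abundant tested member was Cox7b2, a testis isoform, at -1.27 log2 RPM per kb. Part of the spread in level runs with sequence copies elsewhere in the genome: 13 members had at least 30% of their transcript repeated at 98% identity or more, in matches of 50 bases or longer, at another locus, and their median level was 2.71 log2 RPM per kb, against 4.55 for the 65 members with no match of this kind. Atp5g2, Atp5h, Ndufs3 and Atp5g1 were matched over 100%, 77.6%, 75.7% and 69.0% of their length, and their reads are uncertain for that reason.

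The range of a gene's level over all 12 libraries had a median of 1.03 (log2) in members and 1.61 in all tested genes. Leaving out del/del line 3 at day 5 and fl/fl line 3 at day 8, which stand apart from the other libraries and hold many of the extreme values of members, the median range over the remaining 10 was 0.54 in members and 1.31 in all tested genes. This range stayed under 1 for 74 of 80 members, and for 36.4% of all tested genes. Because the libraries were left out after the values were seen, the narrower range of members was partly set by that choice. Members also had more reads, at a median of 639 reads per kb against 96 in all tested genes. The part of counting noise in the ranges was not tested. The 6 members that ranged wider were Cox7b2, Atp5g2, Atp5s, Cox7c, Atp5sl and Ndufb4. The narrowest ranges were those of Atp5h, a stalk subunit of ATP synthase, at 0.24, and Ndufs7, an iron-sulphur subunit of complex I, at 0.30.

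**Figure D1:**
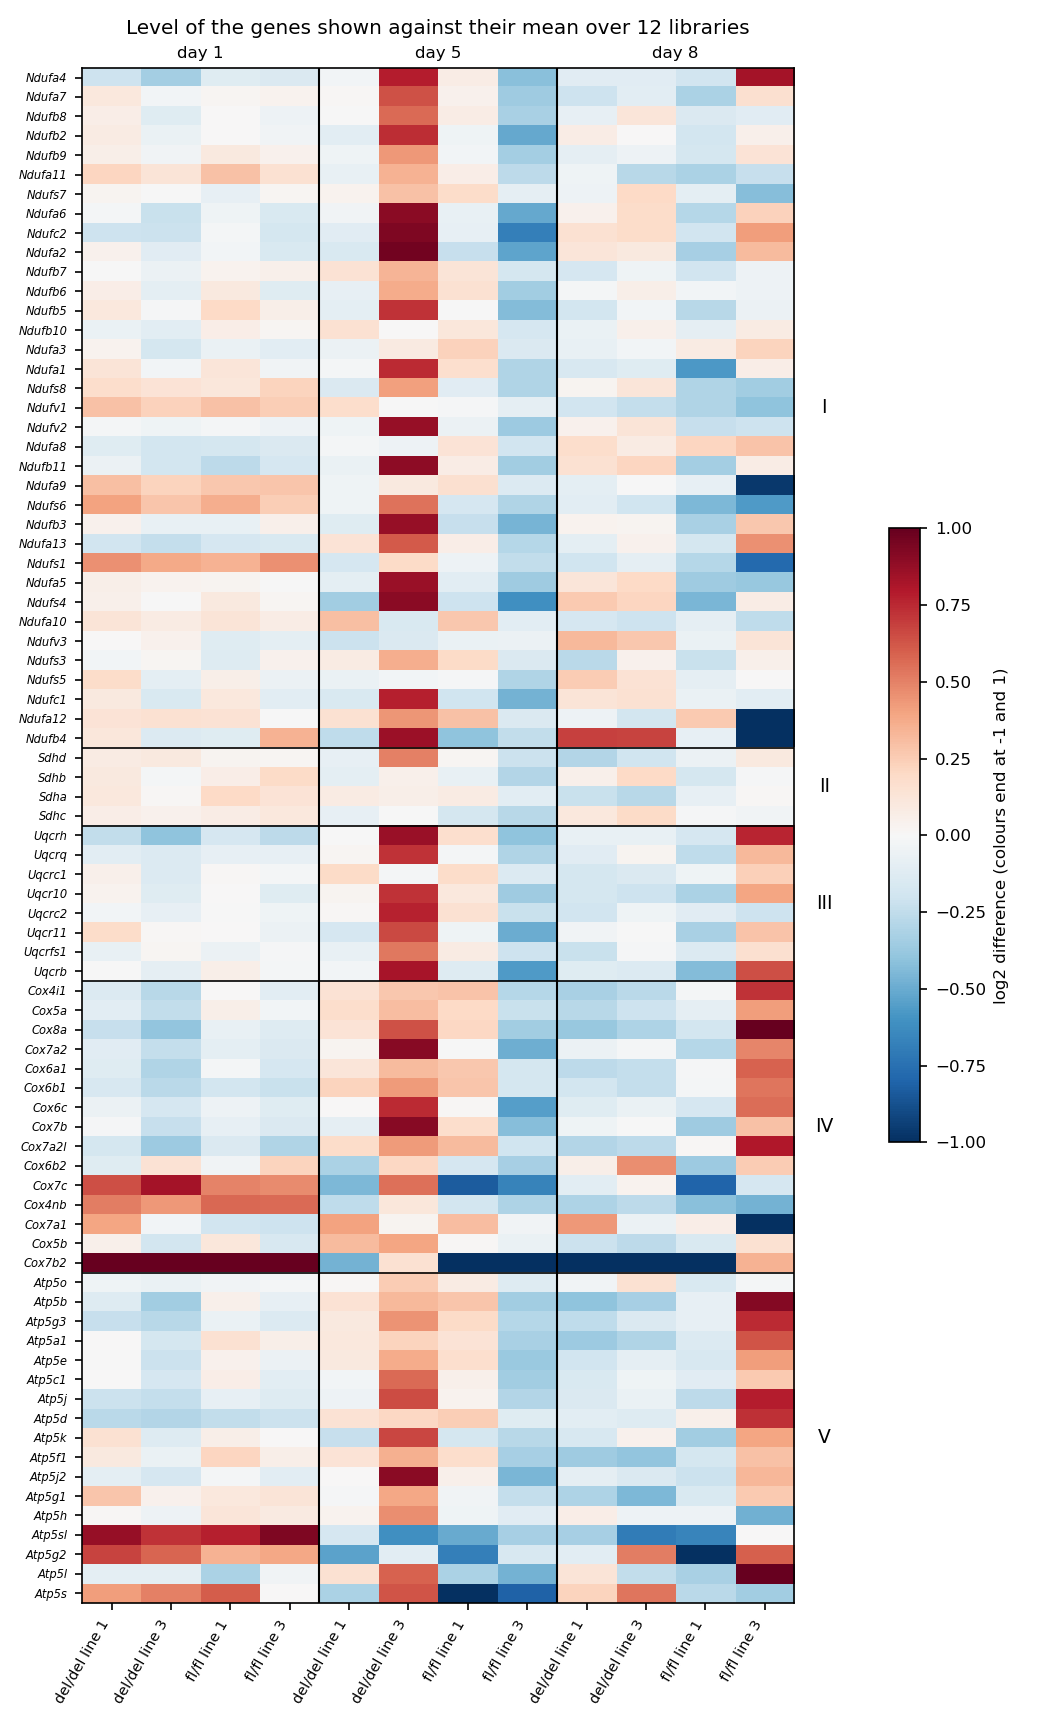
Level of 79 tested genes in each library as a log2 difference from the gene's mean over the 12 libraries, grouped by complex (I to V) and ordered by level per kb within it; columns run by day, with del/del left of fl/fl. Most cells are pale; the exceptions are the columns of del/del line 3 at day 5 and fl/fl line 3 at day 8, and rows such as Cox7b2, Atp5sl, Cox4nb and Cox7c, which are high at day 1.

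Before differentiation the genotypes were close. At day 1, 0 of 80 members passed the test (limma, adjusted p under 0.05; 0.00711% of all tested genes passed), and 0 had an unadjusted p under 0.05 (1.21% of all tested genes). The median difference, del/del minus fl/fl, was -0.03 in members and 0.00 in all tested genes (log2), and 79 of 80 members differed by less than 0.5. The 95% interval of the difference lay within 2-fold for 74 of 80 members (67.5% of all tested genes). Both del/del libraries lay above both fl/fl libraries for 8 members (17.4% of all tested genes) and below for 20 (19.8%). The smallest p-values were those of Cox7b2, described with the isoforms, Cox5a, a subunit of complex IV, at -0.19 ± 0.19 (SE), and Sdha, the flavoprotein of complex II that oxidises succinate. Sdha had levels of 5.98 and 5.88 in del/del cells and 6.07 and 6.00 in fl/fl cells. The groups did not overlap, and the difference of -0.11 ± 0.11 (SE) had an interval of -0.36 to 0.14.

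At day 5 the members were higher in del/del cells as values, without any passing the test. The count was 0 of 80 (limma, adjusted p under 0.05; 0.00711% of all tested genes), and 16 members had an unadjusted p under 0.05 (7.74% of all tested genes). The difference was above 0 for 76 of 80 members and for 47.4% of all tested genes, and its median was 0.33 in members and -0.02 in all tested genes. On the deposited scale, where all genes together shifted by -0.40, the difference was above 0 for 38 of 80 members and their median was -0.04. On the scale of the median gene the 4 members below 0 were Ndufa10, Ndufa8, Ndufa3 and Ndufv3, at -0.12 or closer to 0. The interval lay within 2-fold for 48 of 80 members (56.4% of all tested genes). Both del/del libraries lay above both fl/fl libraries for 22 members (14.3% of all tested genes) and below for 1 (19.8%). By complex the medians were 0.39 for complex I, 0.17 for complex II, 0.51 for complex III, 0.28 for complex IV and 0.33 for complex V.

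These values depended on single libraries. Del/del line 3 was the highest of the 12 libraries for 45 of 80 members, and for 12.3% of all tested genes. Ndufv2, an iron-sulphur core subunit of complex I, stood at 4.95 and 5.87 in del/del lines 1 and 3 against 4.94 and 4.64 in fl/fl lines 1 and 3, so del/del line 1 lay level with fl/fl line 1. Its difference was 0.62 ± 0.23 (SE; interval 0.11 to 1.13; limma, adjusted p = 0.60). Ndufa6, an accessory subunit of complex I, showed the same order, with 4.00 and 4.94 in the del/del cells, against 3.96 and 3.52 in fl/fl cells. Without del/del line 3 the median of the members was 0.14, and without del/del line 1 it was 0.56. Fl/fl line 3 at day 5 was the lowest of the 12 libraries for 36 members and had the high endoderm marker sum. Without it the median was 0.20, and without fl/fl line 1 it was 0.51.

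The excess of del/del line 3 at day 5 went with transcript length. Between the del/del lines, line 3 minus line 1 had a median of 0.57 in the 36 members under 700 bases, 0.52 in the 28 members of 700 to 1500 bases and 0.09 in the 16 longer members. In all tested genes the same medians were 0.39, 0.22 and -0.09. Long members show this in their reads: Uqcrc1, a core protein of complex III with a transcript of 1653 bases, had 1592 and 1119 reads in del/del lines 1 and 3, whereas Uqcrh, the hinge protein of the same complex with 547 bases, had 638 and 948. Gene reads of these libraries were 4.78 and 3.99 M. Between the fl/fl lines at day 5, line 3 minus line 1 ran the other way, at -0.40, -0.32 and -0.30 in the same bins of members. In all tested genes these were -0.21, -0.12 and 0.05. With the length trend removed, the median difference between genotypes at day 5 was 0.16 and 60 of 80 members lay above 0; with the density trend removed these were 0.18 and 62.

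Atp5s had the smallest p at day 5. Its levels were 1.40 and 2.35 in the del/del cells, against 0.53 and 0.91 in fl/fl cells (65 and 102 reads against 32 and 75). The groups did not overlap, and the difference was 1.15 ± 0.35 (SE; interval 0.38 to 1.92; adjusted p = 0.60). Averaged over the 3 days, Atp5s was again first, at 0.67 ± 0.20, followed by Ndufa5, an accessory subunit of complex I, at 0.39 ± 0.15, and Cox7c, a small subunit of complex IV, at 0.50 ± 0.20 (SE; limma, adjusted p = 0.097, 0.14 and 0.15). On that average 0 of 80 members passed (0.107% of all tested genes, 0.0356% as higher and 0.0711% as lower), 6 had an unadjusted p under 0.05 (24.5% of all tested genes), and the interval lay within 2-fold for 76 of 80 (77.2% of all tested genes). The median of the members on that average was 0.10. Without del/del line 1 at day 5 it was 0.17, and without fl/fl line 1 at day 8 it was 0.04.

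**Figure D2:**
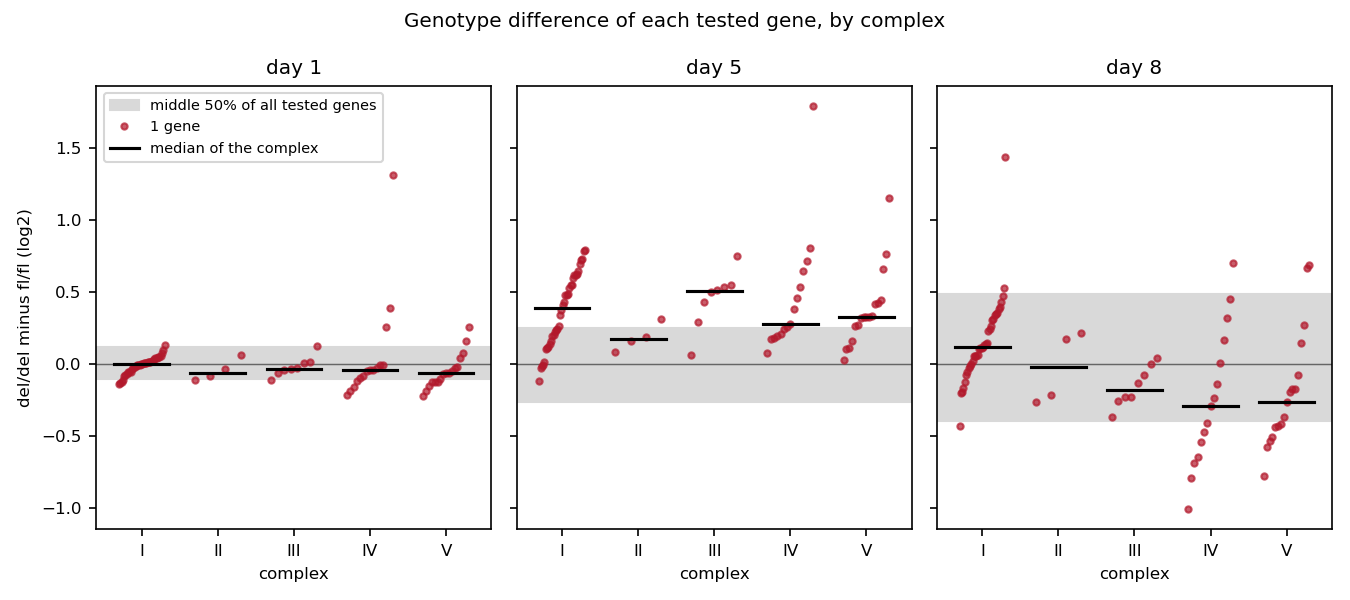
Difference del/del minus fl/fl (log2) of each of the 80 tested genes at each day, split by complex; points are genes in rising order, bars the median of a complex, and the grey band spans the middle 50% of all tested genes. At day 1 the points lie close to 0, at day 5 the medians of the 5 complexes run from 0.17 to 0.51, and at day 8 they run from -0.29 for complex IV to 0.12 for complex I.

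Day 8 was the day with the most calls in the transcriptome, and no member was among them. The test passed 0 of 80 members, against 15% of all tested genes (7.95% higher and 7.05% lower; limma, adjusted p under 0.05). An unadjusted p under 0.05 was reached by 11 members, which is 13.8% of them, and by 34.5% of all tested genes. The median difference was -0.01 in members and 0.02 in all tested genes, and the interval lay within 2-fold for 60 of 80 members (46% of all tested genes). Both del/del libraries lay above both fl/fl libraries for 20 members (32.1% of all tested genes) and below for 19 (30.9%).

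At day 8 the medians of the complexes differed in sign, which was not tested. Groups follow the name prefix, so complexes IV and V include the genes named above that are not subunits. The difference was above 0 for 26 of 36 members of complex I, 2 of 4 of complex II and 2 of 8 of complex III. It was above 0 for 5 of 15 of complex IV and 4 of 17 of complex V. The medians in this order were 0.12, -0.02, -0.18, -0.29 and -0.27. The smallest p-values were those of Cox4i1, the broadly expressed isoform of a large nuclear subunit of complex IV, at -0.65 ± 0.23, Cox7a2l at -0.68 ± 0.24 and Atp5b at -0.78 ± 0.28 (SE; adjusted p = 0.078 to 0.080). Cox4i1 stood at 5.01 and 5.06 in del/del lines 1 and 3 against 5.32 and 6.05 in fl/fl lines 1 and 3. Atp5b stood at 6.50 and 6.57 against 6.82 and 7.82. In both genes the del/del libraries lay below the fl/fl libraries, and fl/fl line 3 lay far above fl/fl line 1. Cox8a, a small subunit of complex IV, had 3.96 and 4.03 in the del/del cells, against 4.16 and 5.41 in fl/fl cells. Ndufb4, an accessory subunit of complex I, showed the opposite order at low depth, with 53 and 49 reads in the del/del cells, against 22 and 2 in fl/fl cells; its difference of 1.43 ± 0.55 did not pass (SE; limma, adjusted p = 0.096), and 40.2% of its transcript is matched elsewhere.

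Line 3 of the fl/fl cells at day 8 differed from line 1 by read density. Reads of line 3 divided by reads of line 1 in fl/fl cells at day 8 had a median of 0.33 in the 44 members with over 600 reads per kb, 0.31 in the 19 with 300 to 600 and 0.24 in the 12 with 100 to 300, but 0.60 in the 5 with under 100. In all tested genes the ratios in these bins were 0.30, 0.24, 0.21 and 0.21. Cox8a, for instance, had 516 to 698 reads in the 11 deeper libraries and 296 in the shallow one, whose gene reads were 1.51 M against at least 3.99 M. Across the 80 members the genotype difference at day 8 had a Spearman rho of -0.48 with reads per kb, as a description over genes that share the same 4 libraries. Over 13835 tested genes of known length rho was -0.05. With fl/fl line 1 as the only fl/fl library, rho was still -0.34 in members, and -0.02 in all tested genes. Line 3 minus line 1 in fl/fl cells had a rho of 0.31 with reads per kb in members and 0.06 in all tested genes. Without fl/fl line 3 the median of the members was 0.13, and without fl/fl line 1 it was -0.25. Without either del/del library of day 5 it was -0.01. On the deposited scale, which is divided by all mapped reads, all genes together shifted by 0.90 at day 8; 12 members passed there, all higher, beside 22.9% of all tested genes higher and 0.484% lower, and the median of the members was 0.87, just under that shift.

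**Figure D3:**
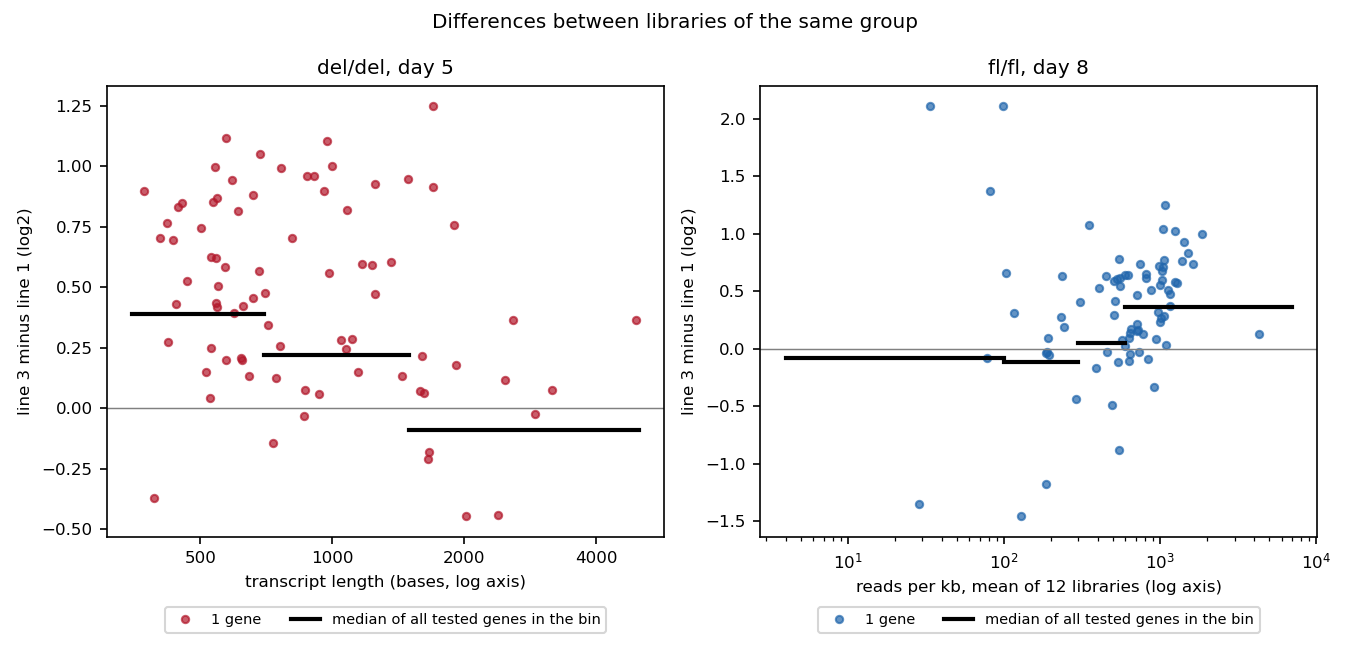
Left: line 3 minus line 1 (log2) in del/del cells at day 5 for each of the 80 genes against transcript length. Right: line 3 minus line 1 in fl/fl cells at day 8 against mean reads per kb; black bars give the median of all tested genes in each bin (length 700 and 1500 bases, density 100, 300 and 600 reads per kb). Points on the left sit above 0 for most short genes, with the all-gene medians stepping down from 0.39 to -0.09; on the right the all-gene median of the densest bin is 0.36.

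The genotype difference was also compared between days. For day 5 minus day 1, 0 of 80 members passed (0% of all tested genes), 0 had an unadjusted p under 0.05 (2.55% of all tested genes), and the median was 0.44. Atp5s at 1.00 ± 0.49, Ndufc2, an accessory subunit of complex I, at 0.90 ± 0.45 and Ndufa6 at 0.75 ± 0.40 had the smallest p-values (SE; limma, adjusted p = 0.96 each). For day 8 minus day 5, 0 passed (0.00711% of all tested genes), 15 had an unadjusted p under 0.05 (13.7% of all tested genes), and the median was -0.43. The smallest p-values there belonged to subunits of complex V and to Cox7a2l: Atp5f1, a subunit of the peripheral stalk, at -0.76 ± 0.27, Cox7a2l at -0.93 ± 0.35 and Atp5a1, the alpha subunit of the head of ATP synthase, at -0.84 ± 0.31 (SE; limma, adjusted p = 0.34 each). Intervals lay within 2-fold for only 29 members in the day 5 contrast (39.9% of all tested genes) and 27 in the day 8 contrast (34.2%). Without fl/fl line 1 at day 8 the median of the members was -0.58 in the day 8 contrast. It was -0.13 without del/del line 3 at day 5, -0.26 without fl/fl line 3 at day 8 and -0.02 without both. On the deposited scale it was 0.83, beside 1.29 for all tested genes. In the day 5 contrast the median of the members was 0.60 without del/del line 1 at day 5. It was 0.17 without del/del line 3 and 0.22 without fl/fl line 3 of that day. On the deposited scale it was -0.10, beside -0.55 for all tested genes. Both libraries that stand apart enter the day 8 contrast.

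Few of these genes were called between day 1 and day 5. Day 5 minus day 1 in del/del cells passed the test for 3 of 80 members, all lower, against 39.5% of all tested genes (21.2% higher and 18.3% lower). In fl/fl cells 7 of 80 passed, all lower, against 40.9% of all tested genes (23% higher and 17.9% lower). Both counts include Cox7b2, which passed the filter on low values only through the day on which it is high. The member medians were 0.27 in del/del and -0.14 in fl/fl cells, beside 0.03 and -0.04 for all tested genes, and the comparisons share no libraries. At an unadjusted p under 0.05 there were 10 members in each genotype (48.3% of all tested genes in del/del and 49.4% in fl/fl cells). Intervals lay within 2-fold for 52 members in del/del and 69 in fl/fl cells (37.8% and 37.3% of all tested genes).

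Of the 3 members called in both genotypes, only Cox7b2 encodes a subunit, and its test had to start from a difference. Atp5sl stood at 2.58 and 2.13 in del/del cells at day 5 against 3.62 and 3.47 at day 1, and at 2.24 and 2.42 in fl/fl cells at day 5 against 3.53 and 3.68 at day 1. It fell by 1.19 ± 0.26 in del/del and by 1.28 ± 0.26 in fl/fl cells (log2, SE; limma, adjusted p = 0.0043 and 0.0028), passed under each of the 20 other settings in both, and was also low at day 8, at 2.05 to 2.75. Cox4nb fell by 0.54 ± 0.14 in del/del cells, to 4.57 and 4.93 at day 5 against 5.33 and 5.25 at day 1 (adjusted p = 0.0097). In fl/fl cells it fell by 0.82 ± 0.14, to 4.63 and 4.51 at day 5 against 5.39 and 5.39 at day 1 (adjusted p = 0.0009). Without del/del line 1 at day 1 the Cox4nb call in del/del cells was lost (adjusted p = 0.077).

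In fl/fl cells 4 further members fell. Ndufs1, the largest iron-sulphur subunit of complex I, stood at 5.17 and 4.97 at day 5 against 5.57 and 5.68 at day 1, a fall by 0.55 ± 0.18 (SE; limma, adjusted p = 0.028). Ndufv1, the flavoprotein that takes electrons from NADH, stood at 4.99 and 4.91 against 5.29 and 5.25, a fall by 0.32 ± 0.12 (adjusted p = 0.049). Both sit in the tip of the peripheral arm of complex I. In both genes the days did not overlap, and in del/del cells the changes were -0.40 ± 0.18 and -0.17 ± 0.12 (adjusted p = 0.092 and 0.27). Cox7c stood at 0.99 and 1.16 at day 5 against 2.32 and 2.29 at day 1 in fl/fl cells, and at 1.38 and 2.38 against 2.47 and 2.66 in del/del cells; it fell by 1.24 ± 0.34 in fl/fl cells (adjusted p = 0.015), and 58.3% of its transcript is matched at other loci. Atp5s fell by 1.30 ± 0.35 in fl/fl cells, to 0.53 and 0.91 against 2.32 and 1.72 (adjusted p = 0.012).

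The calls in fl/fl cells depended on single libraries. Fewer members and fewer of all tested genes passed there without any 1 of the 4 fl/fl libraries of day 1 and day 5. Ndufs1 was lost without any 1 of the 4 fl/fl libraries of these days (adjusted p = 0.052 to 0.16), as was Ndufv1 (adjusted p = 0.099 to 0.20). Cox7c was lost without line 1 or line 3 at day 1 or line 1 at day 5 (adjusted p = 0.069 to 0.076), and Atp5s without line 1 at day 1 or line 1 at day 5 (adjusted p = 0.12 and 0.083). In del/del cells the median over members was 0.48 without line 1 at day 5 and 0.03 without line 3 at day 5. Without line 1 at day 1 it was 0.33. Leaving out fl/fl line 1 or line 3 at day 8, which enter through the shared spread only, left it at 0.27. More members, and more of all tested genes, then passed. On the deposited scale 12 members passed in del/del and 5 in fl/fl cells, all lower, beside 5.87% of all tested genes higher and 35% lower in del/del cells and 8.68% and 10.2% in fl/fl cells.

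Between day 5 and day 8 no member passed in either genotype. The count was 0 of 80 in del/del cells (11.9% of all tested genes, 7.24% higher and 4.67% lower; 14 members and 28.3% of all tested genes at an unadjusted p under 0.05) and 0 of 80 in fl/fl cells (6.73%, 3.15% higher and 3.58% lower; 2 members and 24.9% unadjusted). In del/del cells 71 of 80 members were lower at day 8 than at day 5, with a median of -0.32, and the smallest p was that of Ndufv3, a small subunit bound to Ndufv1, which went the other way: it stood at 3.90 and 3.85 at day 8 against 3.37 and 3.44 at day 5 (0.48 ± 0.14, SE; limma, adjusted p = 0.052). Atp5f1 stood at 4.85 and 4.81 against 5.35 and 5.56 (-0.62 ± 0.19; adjusted p = 0.061), and Sdha at 5.65 and 5.59 against 5.95 and 5.93 (-0.32 ± 0.11; adjusted p = 0.091). In fl/fl cells the median was 0.16, with 57 of 80 members above 0, and the smallest p-values belonged to Ndufv1, Ndufa9 and Ndufs1, at -0.30, -0.54 and -0.38 (adjusted p = 0.14 to 0.21). In del/del cells the median was -0.63 without line 1 at day 5, -0.07 without line 3 at day 5, and -0.32 without any 1 fl/fl library of day 5 or day 8. In fl/fl cells it was 0.33 without line 1 at day 8 and -0.06 without line 3 at day 8. On the deposited scale the median of the members was 0.38 in del/del cells, beside 0.69 for all tested genes. In fl/fl cells it was -0.39 there, beside -0.55 for all tested genes.

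**Figure D4:**
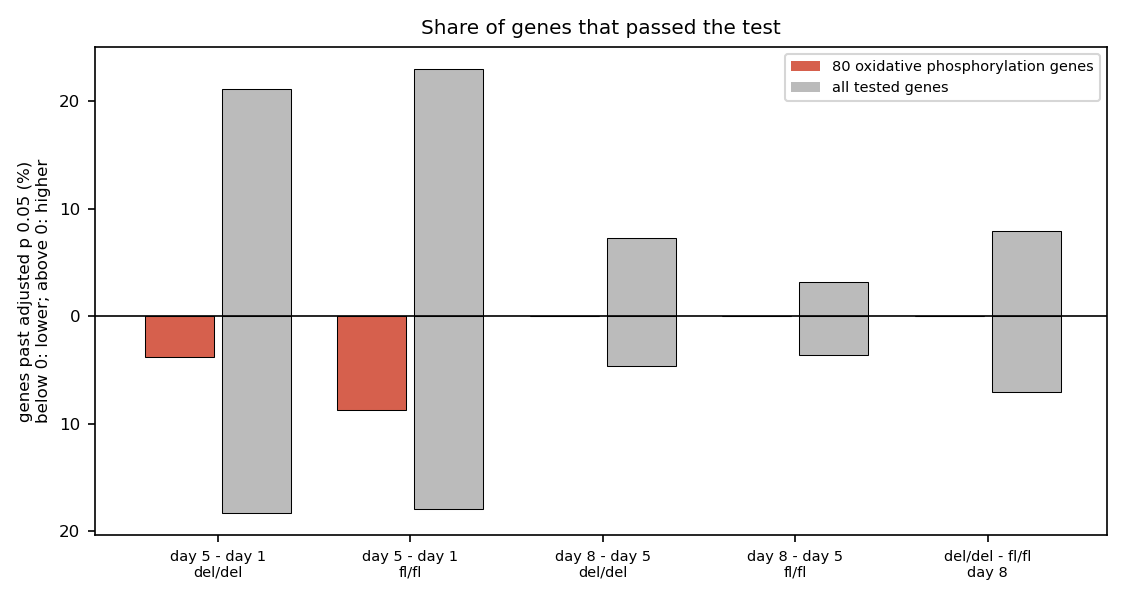
Share of genes past an adjusted p of 0.05 (percent; bars above 0 for higher, below 0 for lower) among the 80 oxidative phosphorylation genes (red) and all tested genes (grey), for the 4 comparisons of days and the comparison of genotypes at day 8. Members are called in both day 5 comparisons only, all as lower, at 3.75% in del/del and 8.75% in fl/fl cells, below the grey bars of 18.3% and 17.9%. These shares include Cox7b2, which passed the filter on low values only through the day on which it is high.

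The core and catalytic subunits gave these values. Among the nuclear core subunits of complex I, the values of Ndufs1, Ndufs3, Ndufs7, Ndufs8, Ndufv1 and Ndufv2 differed between the genotypes by -0.01 to 0.05 at day 1, by 0.12 to 0.62 at day 5 and by -0.03 to 0.40 at day 8 (log2, del/del minus fl/fl). The 4 subunits of complex II, which is wholly encoded in the nucleus and also serves the citric acid cycle, differed by -0.11 to 0.06, by 0.08 to 0.31 and by -0.26 to 0.22. Sdhb, its iron-sulphur subunit, stood at 4.78 and 4.66 in the del/del cells, against 4.74 and 4.87 in fl/fl cells at day 1. In complex III the Rieske protein Uqcrfs1 differed by 0.01 at day 1, 0.29 at day 5 and -0.13 at day 8, Uqcrc1 by -0.04, 0.06 and -0.26, and Uqcrc2 by -0.03, 0.43 and 0.04. In complex V the alpha and beta head subunits Atp5a1 and Atp5b differed by -0.19 and -0.22 at day 1, 0.26 and 0.27 at day 5, and -0.58 and -0.78 at day 8. Reads of all members together made up 0.77 to 1.20% of the gene reads of a library.

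Among the members that are tissue-restricted isoforms, 1 was called between days. Cox7b2, the testis partner of the broadly expressed Cox7b, had 70 and 74 reads in del/del and 15 and 37 in fl/fl cells at day 1, and 1 to 5 reads in each of the 8 later libraries. Its level fell by 3.08 ± 0.82 in del/del and by 3.56 ± 0.82 in fl/fl cells at day 5 against day 1 (log2, SE; limma, adjusted p = 0.012 and 0.0057). The gene passed the filter on low values only through 3 libraries of day 1, the day on which it is high, so that the test had to start from a difference; with no filter the adjusted p was 0.0087 in del/del and 0.0041 in fl/fl cells. The call was lost in del/del cells without line 1 or line 3 at day 1 or line 1 at day 5 (adjusted p = 0.057 to 0.078), and in fl/fl cells without line 3 at day 1 or with a pseudocount of 1 RPM (adjusted p = 0.063 and 0.17). At day 1 its del/del libraries lay above the fl/fl libraries, with a difference of 1.31 ± 0.82 (interval -0.50 to 3.12; adjusted p = 1.00). Reads per length of Cox7b2 were 14.6% and 15.5% of those of Cox7b2 and Cox7b together in del/del cells at day 1, against 4.49% and 9.73% in fl/fl cells, and at most 2.20% in any later library. Cox7b stood at 4.25 and 4.03 in the del/del cells, against 4.18 and 4.12 in fl/fl cells at day 1, so the groups overlapped for the broad partner. Sums of 6 germ cell markers were 32.4 and 35.4 RPM in del/del and 24.6 and 31.1 RPM in fl/fl cells at day 1, and 11.4 to 16.2 RPM in the 4 libraries of day 5. At day 8 they were 17.6 and 19.4 RPM in del/del and 7.46 and 8.42 RPM in fl/fl cells. Their part in the values of testis isoforms was not tested.

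Other restricted isoforms were present at each day. Cox6b2, a testis isoform, made up 26.2 to 45.7% of the reads per length of Cox6b1 and Cox6b2 together, and Cox7a1, the heart and muscle isoform, 4.96 to 18.3% beside Cox7a2. At day 8 the Cox6b2 share was 38.0% and 45.7% in the del/del cells, against 28.9% and 29.8% in fl/fl cells, but the level itself differed by 0.32 ± 0.26 (interval -0.27 to 0.90), and Cox6b1 was among the genes that stood high in the shallow fl/fl library, at 4.17 and 4.11 in the del/del cells, against 4.34 and 4.89. Of the 3 genes that encode the same mature c subunit of ATP synthase, Atp5g3 was the most abundant; Atp5g1 reached 12.2 to 21.8% beside Atp5g3 and Atp5g2 2.02 to 9.45%, both subject to the copies named above.

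Among the names the rule left out, the lung isoform Cox4i2 and the hypoxia-responsive Ndufa4l2 had reads at day 8 in del/del cells only. Both passed the filter on low values only through del/del libraries, so their tests had to start from a difference; with no filter the adjusted p was 0.0066 for Cox4i2 and 0.018 for Ndufa4l2. Cox4i2 had 221 and 269 reads in the del/del cells, against 0 and 0 in fl/fl cells, at least 73.5-fold higher when 3 reads are allowed over the fl/fl group, and made up 14.1% and 17.2% of the reads per length of Cox4i1 and Cox4i2 together (limma, adjusted p = 0.0087). At day 1 the del/del cells held 14 and 14 reads and the fl/fl cells 4 and 0; at day 5 these were 5 and 34 reads and 4 and 6. Ndufa4l2 had 44 and 104 against 0 and 0 reads at day 8, at least 22.2-fold higher (adjusted p = 0.024), and 5 of the other settings, each leaving out 1 library of day 8 or using a pseudocount, gave it an adjusted p of 0.051 to 0.20. The Cox4i2 call was lost without del/del line 3 at day 8 (adjusted p = 0.089). The fibroblast and striated muscle marker sums given above were higher in the same del/del libraries, though not each marker was. Their part in these values was not tested.

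**Figure D5:**
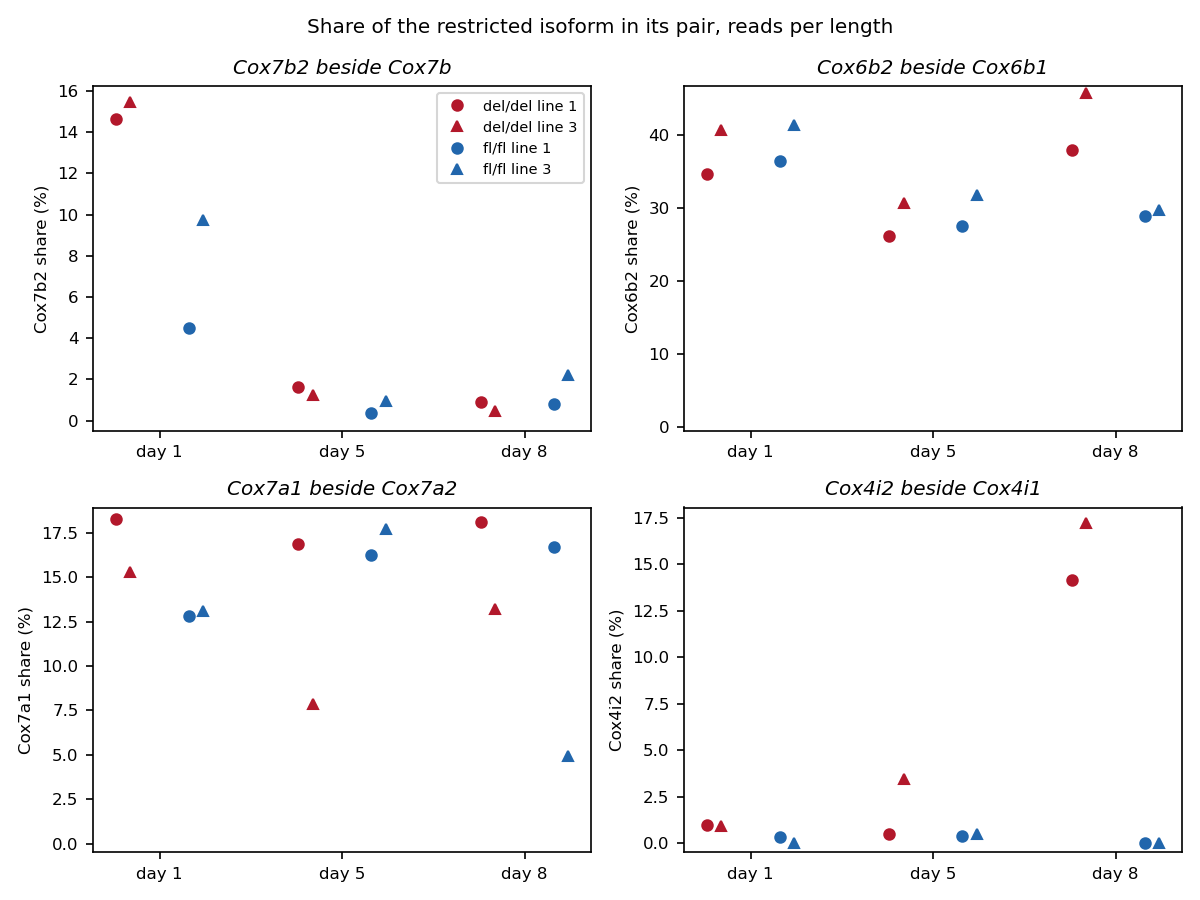
Share of the restricted isoform in the reads per length of an isoform pair (percent), for Cox7b2, Cox6b2, Cox7a1 and Cox4i2 beside their broad partners, in each library by day; red for del/del, blue for fl/fl, circles for line 1 and triangles for line 3. Cox7b2 is at 4.49 to 15.5% at day 1 and at 2.20% or below later, and Cox4i2 reaches 14.1% and 17.2% in del/del cells at day 8 with 0 in fl/fl cells.

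The rest of the pathway was read from lists of other mitochondrial genes. The 5 tested subunits and carriers outside the name rule, Cyc1, Ndufab1, Usmg5, 2010107E04Rik and Atpif1, passed in none of the comparisons of genotypes or days. Their median was -0.10 at day 1, 0.55 at day 5 and -0.03 at day 8 (del/del minus fl/fl), and at day 5 it was 0.12 without del/del line 3 of that day and 0.17 on the deposited scale. At day 8, 1 passed as higher on the deposited scale or without that library. Counts of the lists from day 1 to day 5 stand beside 21.2% higher and 18.3% lower of all tested genes in del/del cells, and 23% and 17.9% in fl/fl cells. Of 16 genes of the citric acid cycle and pyruvate dehydrogenase, 0 passed between genotypes at day 8. From day 1 to day 5, 2 were higher and 1 lower in del/del cells, and 1 higher and 2 lower in fl/fl cells: Cs, citrate synthase, rose by 0.36 ± 0.13 and 0.43 ± 0.13 in del/del and fl/fl cells, and Idh3g, a subunit of isocitrate dehydrogenase, fell by 0.40 ± 0.12 and 0.47 ± 0.12 (SE; limma, adjusted p = 0.0087 to 0.048). Of 76 mitochondrial ribosomal proteins, 7 fell and 2 rose in del/del cells, and 17 fell and 1 rose in fl/fl cells; Mrps5, Mrps27 and Mrpl15 fell in both. Without del/del line 3 at day 5, 17 fell in del/del and 28 in fl/fl cells, and without fl/fl line 3 at day 8, 11 and 24. At day 5, 64 of these 76 had a difference between genotypes above 0 (47.4% of all tested genes), with a median of 0.24 and 0 past the test; without del/del line 3 the median was 0.07, and on the deposited scale it was -0.13. On the deposited scale, where all genes together shifted by -0.88 in del/del and -0.42 in fl/fl cells, 36 of the 76 fell in del/del and 4 in fl/fl cells.

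Assembly factors, which help to build the complexes without staying in them, included genes called at day 8. Of 47 tested, 8 were higher in del/del cells and 0 lower (17.0% of the list higher, against 7.95% of all tested genes), with a median of 0.39. They included Sdhaf1, which inserts iron-sulphur clusters into complex II, at 1.00 ± 0.25, and the complex I factor Ndufaf5, deposited under the clone name 2310003L22Rik, at 1.61 ± 0.35 (SE; limma, adjusted p = 0.027 and 0.019). Without the shallow fl/fl line 3 at day 8 these calls were lost and the median was 0.24. Without del/del line 3 at day 5 the median was 0.39. On the deposited scale 18 passed as higher, beside 22.9% of all tested genes. From day 1 to day 5, 5 of 47 fell in del/del and 8 in fl/fl cells and none rose. Of all tested genes 18.3% and 17.9% were lower, and 21.2% and 23% higher. On the deposited scale 17 and 3 fell, beside 35% and 10.2% of all tested genes. The median of the list was -0.44 in del/del and -0.34 in fl/fl cells without del/del line 3 at day 5. Without fl/fl line 3 at day 8 it was -0.14 and -0.34. Ecsit, a complex I assembly factor, fell in both, by 1.51 ± 0.17 in del/del and 0.98 ± 0.17 in fl/fl cells (adjusted p = 7e-05 and 0.0010).

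Some regulators of mitochondrial genes fell between day 1 and day 5. Of 13 tested, 7 fell and 1 rose in del/del cells, and 6 fell and 1 rose in fl/fl cells, beside 18.3% and 17.9% lower of all tested genes; whether the list differs from all genes was not tested. On the deposited scale 8 fell in del/del and 1 in fl/fl cells. Nrf1, a transcription factor that binds many promoters of respiratory chain genes, fell by 0.94 ± 0.12 in del/del and 0.72 ± 0.12 in fl/fl cells (log2, SE; limma, adjusted p = 0.0001 and 0.0008). Tfb1m, a methyltransferase of mitochondrial ribosomal RNA, fell by 1.60 ± 0.41 and 2.23 ± 0.41 (adjusted p = 0.011 and 0.0017), and at day 8 it was 2.12 ± 0.41 higher in del/del than in fl/fl cells (adjusted p = 0.015). The only other regulator called at day 8 was Yy1, a zinc finger factor, which was lower in del/del cells, at -0.49 ± 0.14 (adjusted p = 0.043); without fl/fl line 3 at day 8, 1 of 13 passed as higher and 0 as lower, and on the deposited scale 5 and 0. Tfam, which packages mitochondrial DNA, and Pprc1, a coactivator, fell by 0.72 ± 0.17 and 0.60 ± 0.13 in fl/fl cells (adjusted p = 0.0060 and 0.0046).

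The promoters of members were searched for letters known to be bound by respiratory gene regulators, with all tested genes beside them. In windows from 250 bases before to 50 bases after the RefSeq start (GRCm38.p6), both strands were searched for the NRF1 letters, GCGC and TGCGC with any 1 base between them. They were found in 16 of 67 members with a window (23.9%), in 10.3% of 10542 tested genes and in 6.6% of 17621 genes in all. The ETS letters CCGGAAG, bound by the respiratory factor GABPA, were in 15 of 67 members (22.4%) and 18.0% of tested genes, the YY1 letters AAGATGG in 14.9% and 7.2%, and the hypoxia element ACGTG in 25.4% and 25.7%. A match is a description of the letters and not a bound site. The median number of CpG pairs in the window was 19 in members and 21 in tested genes. Upstream stretches of 3 members with NRF1 letters are printed first, for the succinate dehydrogenase flavoprotein with 3 matches and for a subunit each of complexes V and IV, and then those of Cox7b2 and Cox7b, the pair of members of which 1 was called between days, which hold neither the NRF1 nor the ETS letters. Capitals mark the NRF1 letters or their reverse complement; each stretch is on the strand of its gene and ends at the base before the RefSeq start.
Sdha (chr13:74350241-74350360, minus strand): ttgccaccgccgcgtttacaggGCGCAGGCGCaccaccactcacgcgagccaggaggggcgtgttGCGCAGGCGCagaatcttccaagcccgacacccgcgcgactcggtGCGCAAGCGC
Atp5k (chr5:108434400-108434519, minus strand): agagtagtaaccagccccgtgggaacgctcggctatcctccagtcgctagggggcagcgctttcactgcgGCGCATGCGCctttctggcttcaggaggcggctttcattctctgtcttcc
Cox6a1 (chr5:115348959-115349078, minus strand): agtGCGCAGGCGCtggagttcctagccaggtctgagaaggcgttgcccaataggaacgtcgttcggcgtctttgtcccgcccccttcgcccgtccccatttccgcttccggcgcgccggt
Cox7b2 (chr5:71548206-71548355, minus strand): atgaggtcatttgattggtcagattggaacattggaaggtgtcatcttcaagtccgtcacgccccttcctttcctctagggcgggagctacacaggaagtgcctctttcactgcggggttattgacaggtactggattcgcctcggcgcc
Cox7b (chrX:106015550-106015699, plus strand): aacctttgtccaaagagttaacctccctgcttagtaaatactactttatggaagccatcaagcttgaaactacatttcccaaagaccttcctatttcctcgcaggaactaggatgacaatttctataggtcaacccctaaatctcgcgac

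The changes of members with and without the NRF1 letters, beside the fall of Nrf1 itself, are given as a description. From day 1 to day 5 the median change was 0.16 in 16 tested members with the letters and 0.31 in 50 without them in del/del cells, and -0.18 against -0.09 in fl/fl cells. The ranges overlapped widely, at -0.95 to 0.55 with and -3.08 to 0.75 without the letters in del/del cells. Sdha, with 3 matches, stood at 5.95 and 5.93 in del/del cells at day 5 against 5.98 and 5.88 at day 1, and Atp5k, with 1 match, at 2.92 and 3.81 against 3.30 and 3.02, so the groups overlapped in both.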

How the data were processed

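Per the labels, the authors deposited 1 table of log2 RPM (reads scaled to all mapped reads) for 12 libraries; the submitters' processing notes list edgeR, TopHat2 2.0.12, bcl2fastq and the build mm10. Whole reads were recovered from the steps of the deposited values (100% within 0.02 reads); genes at 0 had been entered as 0.9 reads. Members and gene lists were chosen with earlier results of these data known. Each library was shifted to its median gene. The 14063 genes whose log2 value exceeded 0 in 2 or more libraries were fitted with limma 3.58.1 in R 4.3.3 (6 group means, mean-variance trend; Benjamini-Hochberg over all tested genes at 0.05). Members named per comparison are those past the threshold or, where fewer than 3 passed, the 3 smallest p-values, besides fixed core, isoform and complex II genes; other members given as examples were chosen after their values were seen. Lengths, from the principal transcript of GENCODE M21, and copies, from blastn 2.17.0, are of GRCm38. Same-numbered libraries come from the same ES line, per the titles and column names; their deviations correlated between genotypes by 0.13 at day 1, -0.15 at day 5 and -0.11 at day 8. The fit was tested on simulated data. The values of 1 member are not reported here.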

Additional observations from a re-analysis of the deposited data

How the results depend on the processing

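The replicate block (line as a term) left 3 members in del/del and 7 in fl/fl cells from day 1 to day 5 and 0 elsewhere, and changed no count of members. In the counts that follow, all tested genes called higher and lower, of 14063, stand in brackets where given. At day 8 between genotypes, 3 members passed with the read density trend removed (1241 and 1194). On the deposited scale 12 passed, all higher (3227 and 68). With the length trend removed 8 passed, all lower (1263 and 1142). Without both libraries that stand apart the median over members was 0.13. From day 1 to day 5 in del/del cells, 5 passed with the density trend removed, 12 on the deposited scale, 7 with the length trend removed, 9 by voom and 8 without both libraries; in fl/fl cells 13 passed without both libraries. Of those in del/del cells, 1 was higher and 4 lower with the density trend removed (3012 and 2761). On the deposited scale all 12 were lower (826 and 4928). With the length trend removed 3 were higher and 4 lower (3013 and 2784). By voom 6 were higher and 3 lower (3326 and 2859). Without both libraries the median over members was 0.04 in del/del and -0.11 in fl/fl cells. From day 5 to day 8 in del/del cells, 2 passed with the density trend removed (886 and 654) and 1 with the length trend removed (1016 and 812). With a pseudocount of 1 RPM 2 passed (1203 and 740), and by voom 4 (1462 and 1057). Without both libraries the median was -0.08. The cause of these moves was not tested. Removing the length trend and leaving out both libraries were chosen after seeing the data. Leaving out 1 library at a time, the lowest and highest counts between genotypes were 0 and 0 at day 1, 0 and 23 at day 5, 0 and 18 at day 8, and 0 and 14 on the average over days; they ran from 0 to 2 and 0 to 20 for the change of the genotype effect to day 5 and to day 8; from 1 to 26 in del/del and 3 to 10 in fl/fl cells from day 1 to day 5; and from 0 to 10 and 0 to 14 from day 5 to day 8. These counts join both directions and are not set beside those of all tested genes. The highest counts between genotypes at day 5 and from day 1 to day 5 in del/del cells came without del/del line 1 at day 5. The medians over members were then 0.56 and 0.48, and the members called were mostly higher, unlike in the main fit. More of all tested genes also passed between genotypes at day 5 there. A lone library left in a group was taken to vary like the other groups. With 1 library left out at a time, the median over members crossed 0 between genotypes at day 1 (-0.08 to 0.02) and day 8 (-0.25 to 0.13). It also did so in fl/fl cells from day 1 to day 5 (-0.33 to 0.04) and from day 5 to day 8 (-0.06 to 0.33). The planned count test with edgeR was not run, because the deposited unit is log2; voom took its place. Depth limits Cox7b2, Ndufb4 and Atp5g2, which had at most 84 reads in a library.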
